A study of Homo sapiens with 6 samples.

Results

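Aminoacyl tRNA synthetases join each amino acid to its transfer RNA. Their transcripts were followed across 36 genes, taken by gene symbol from a read count table of 23250 genes. All 36 symbols were found, and all 36 passed the filter on low counts. Of these genes, 18 encode cytosolic enzymes, 16 encode mitochondrial enzymes, and the remaining 2, GARS and KARS, each give rise to both a cytosolic and a mitochondrial form.

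The libraries came from OCI-LY1, an established human line of diffuse large B cell lymphoma, a tumour of mature B cells. In every sample siRNA had been used against the cells' own BCL6, a transcriptional repressor required by B cells of the germinal centre, and BCL6 was then expressed from an introduced copy. The RD2-mutant rescue received BCL6 mutated in its second repression domain and the wild-type rescue received normal BCL6, with 3 libraries of each and the same medium throughout. No library lacked a rescue, the labels do not say whether libraries came from separate cultures, and the p-values therefore speak only of variation among these libraries, some or all of which may be technical.

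Synthetases supply the ribosome with charged transfer RNA. Cytosol and mitochondrion each need a full set, and most amino acids are served by a separate nuclear gene for each compartment. In the cytosol several of the enzymes are held together in a multisynthetase complex on scaffold proteins, while others act alone. Many cytosolic synthetase genes are known targets of ATF4, the transcription factor of the amino acid and integrated stress response, and transcription factors such as MYC raise the translation machinery in lymphoid cells. Structurally the enzymes fall into class I and class II by the fold of the catalytic domain.

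Total counts were 26298456 to 26966183 in the RD2-mutant rescue libraries and 26477404 to 27574867 in the wild-type rescue libraries. BCL6 had 14166, 13726 and 13827 counts in the RD2-mutant rescue, against 19069, 16998 and 18789 in the wild-type rescue. It was 1.31-fold lower in the RD2-mutant rescue (edgeR, adjusted p = 7.90e-10), so the rescues differ in BCL6 transcript as well as in the mutation. These counts do not separate the introduced transcript from the cell's own. Whether the BCL6 level takes part in any result was not tested. The 8 B lineage markers checked, BCL6 among them, summed to 4027 to 4072 CPM (counts scaled to library size) in the RD2-mutant rescue and 4644 to 4693 CPM in the wild-type rescue. Of these MS4A1 differed most, with 2754 to 2940 counts in the RD2-mutant rescue, against 15512 to 15908 in the wild-type rescue. The 9 markers of other cell types summed to 4.70 to 5.29 CPM in the RD2-mutant rescue and 17.2 to 18.3 CPM in the wild-type rescue, most of it EPCAM. CD3E was at 0 in all 6 libraries. Whether these marker differences take part in any result was not tested.

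Short promoter windows are shown for members that carry, close to the gene's start, a motif that the results return to. Each runs from 100 bases before to 50 bases after the gene's start, 5′ to 3′ on the gene's own strand, from RefSeq on GRCh38.p14. In the first set capitals mark TGATGNAAN on either strand, the response element that CEBP and ATF factors such as ATF4 bind, and TARS, IARS, NARS, MARS and CARS are shown because they carry it close to the start.
TARS (chr5:33440865-33441014, plus strand): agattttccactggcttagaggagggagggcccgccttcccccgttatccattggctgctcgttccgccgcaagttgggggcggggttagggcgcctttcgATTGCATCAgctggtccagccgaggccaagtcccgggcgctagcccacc
IARS (chr9:92293648-92293797, minus strand): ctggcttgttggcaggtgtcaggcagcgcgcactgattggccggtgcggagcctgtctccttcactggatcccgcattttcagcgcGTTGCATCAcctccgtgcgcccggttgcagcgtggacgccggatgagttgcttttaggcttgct
NARS (chr18:57621787-57621936, minus strand): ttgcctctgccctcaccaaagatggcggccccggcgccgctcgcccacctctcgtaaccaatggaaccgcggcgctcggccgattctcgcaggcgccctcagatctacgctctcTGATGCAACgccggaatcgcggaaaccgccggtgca
MARS (chr12:57487968-57488117, plus strand): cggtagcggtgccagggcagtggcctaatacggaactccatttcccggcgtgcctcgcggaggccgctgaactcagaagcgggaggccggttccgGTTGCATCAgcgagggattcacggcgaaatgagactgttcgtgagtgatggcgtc
CARS (chr11:3057374-3057523, minus strand): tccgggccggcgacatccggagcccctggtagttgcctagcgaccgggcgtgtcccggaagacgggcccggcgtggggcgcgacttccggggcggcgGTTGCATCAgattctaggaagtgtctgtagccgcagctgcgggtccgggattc
In the second set capitals mark CACGTG, the palindromic E-box bound by MYC and related factors, in the mitochondrial genes EARS2, CARS2 and MARS2.
EARS2 (chr16:23557301-23557450, minus strand): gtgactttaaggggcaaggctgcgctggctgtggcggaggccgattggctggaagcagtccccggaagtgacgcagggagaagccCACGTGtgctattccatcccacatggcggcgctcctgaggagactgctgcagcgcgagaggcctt
CARS2 (chr13:110706466-110706615, minus strand): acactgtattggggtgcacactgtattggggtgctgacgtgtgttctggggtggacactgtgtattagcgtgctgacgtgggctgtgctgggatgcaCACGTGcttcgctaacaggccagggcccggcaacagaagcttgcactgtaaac
MARS2 (chr2:197705269-197705418, plus strand): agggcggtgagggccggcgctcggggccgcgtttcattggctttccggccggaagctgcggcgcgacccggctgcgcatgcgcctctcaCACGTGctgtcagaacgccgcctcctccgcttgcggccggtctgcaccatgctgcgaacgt

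Synthetase transcripts were mostly lower in the RD2-mutant rescue, in both compartments and to a similar extent. Of the 20 cytosolic and dual-localised genes, 13 fell, 4 rose and 3 did not pass the test. Of the 16 mitochondrial genes, 10 fell, 1 rose and 5 did not pass (quasi-likelihood test of edgeR, with Benjamini-Hochberg adjustment over all tested genes and a threshold of 0.05). Among all 12406 tested genes 70.1% changed, 34.8% lower and 35.4% higher, so a change as such was common, whereas the members' counts leaned to the lower side. A called fall of at least 1.2-fold was seen in 10 cytosolic or dual-localised and 6 mitochondrial genes, beside 23.7% of all tested genes, and a called rise of that size in 1 member, TARS, beside 25.4%. The median log2 fold change, RD2-mutant over wild-type rescue, was -0.26 for the cytosolic and dual-localised genes and -0.21 for the mitochondrial genes, beside 0.01 for all tested genes. CPM here are counts scaled to library size with TMM factors. They are shares of a bulk library, in which fewer cells of a type and less RNA per cell cannot be told apart.

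**Figure D1:**
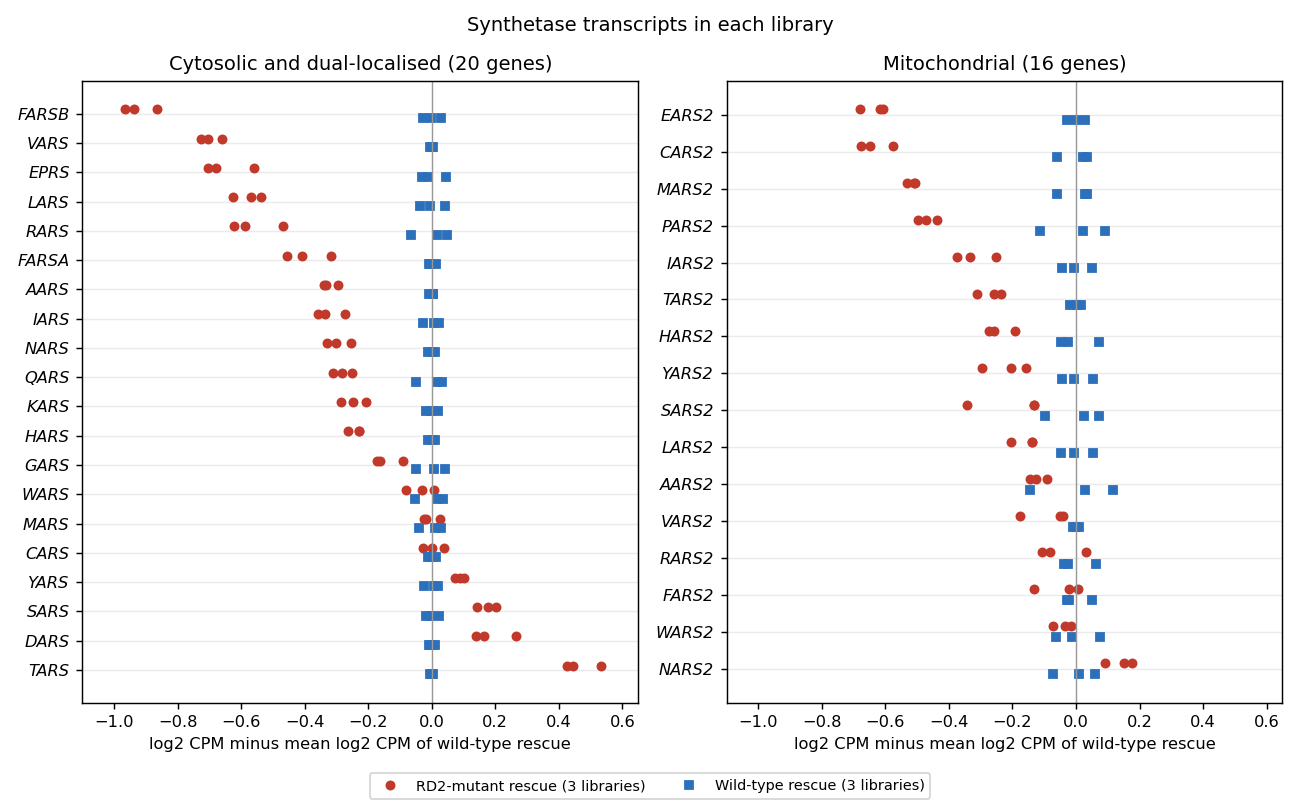
Each point is 1 library, plotted as log2 CPM minus the mean log2 CPM of the 3 wild-type rescue libraries (horizontal axis), for each gene (rows, ordered by fold change). The RD2-mutant rescue lies left of the wild-type rescue for most rows in both panels, with FARSB lowest and TARS highest.

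Summed over the genes of a compartment, the 20 cytosolic and dual-localised genes held 4189, 4352 and 4243 CPM in the RD2-mutant rescue libraries, against 5002, 5114 and 5083 CPM in the wild-type rescue libraries. The 16 mitochondrial genes held 729, 742 and 734 CPM in the RD2-mutant rescue, against 876, 887 and 872 CPM in the wild-type rescue. Neither sum overlapped between the groups, and the RD2-mutant sums were 84.1% and 83.7% of the wild-type sums for the 2 compartments. The ratio of the cytosolic and dual-localised sum to the mitochondrial sum was 5.75, 5.86 and 5.78 in the RD2-mutant rescue and 5.71, 5.77 and 5.83 in the wild-type rescue. These ratios overlapped, so the balance between the compartments did not differ beyond the spread of the libraries, while single genes within each compartment moved apart.

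**Figure D2:**
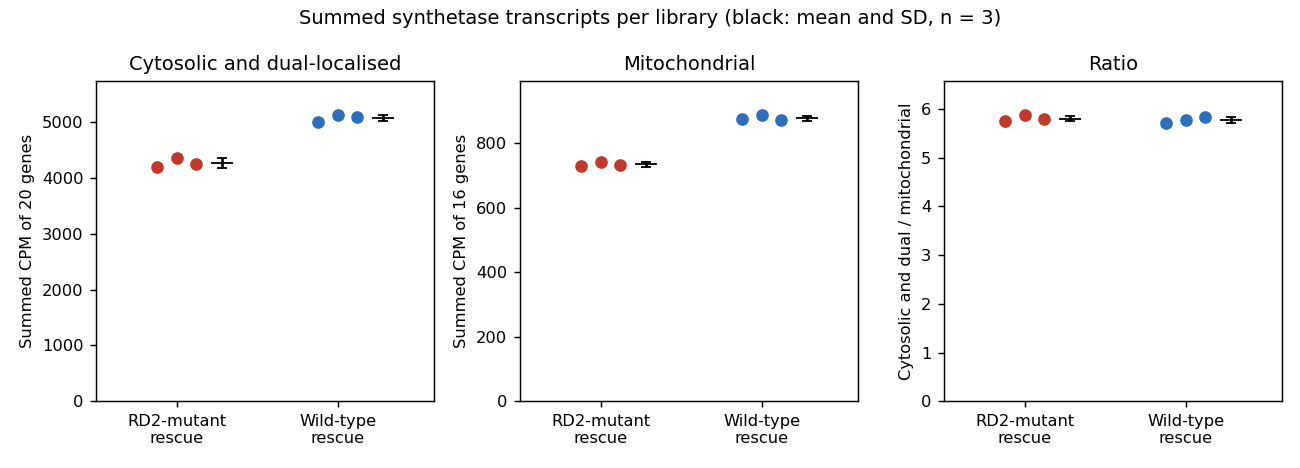
Summed CPM of the 20 cytosolic and dual-localised genes, of the 16 mitochondrial genes, and the ratio of the sums (vertical axes, from 0), with 1 point per library and the mean and SD over 3 libraries in black. Both sums are lower in the RD2-mutant rescue, and the ratios overlap.

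Per kilobase of coding length, the median cytosolic or dual-localised gene stood at 93.9 CPM in the RD2-mutant rescue and 108 CPM in the wild-type rescue. The median mitochondrial gene stood at 22.6 CPM per kilobase in the RD2-mutant rescue and 26.3 in the wild-type rescue. In the wild-type rescue GARS, DARS and YARS were the most abundant on this scale (189, 183 and 182 CPM per kilobase), and AARS2 and PARS2 the least (10.0 and 5.96). The compartments overlapped only in part, with IARS2 the highest mitochondrial gene (52.2 in the wild-type rescue) and TARS the lowest cytosolic one (33.5).

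Among the cytosolic enzymes FARSB and VARS fell furthest. FARSB, the beta subunit of phenylalanyl tRNA synthetase, had 121, 127 and 118 CPM in the RD2-mutant rescue, against 227, 231 and 236 CPM in the wild-type rescue. It was thus 1.90-fold lower, with no overlap between the groups (log2 fold change -0.92, SE 0.035; edgeR, adjusted p = 2.43e-15). Its partner FARSA, the alpha subunit of the same tetramer, had 154, 149 and 164 CPM in the RD2-mutant rescue, against 207, 204 and 204 CPM in the wild-type rescue. Both subunits fell, FARSA 1.31-fold, and the 95% intervals of their log2 fold changes were -0.99 to -0.85 for FARSB and -0.47 to -0.32 for FARSA. VARS, the valyl enzyme, which associates with elongation factor 1, had 130, 129 and 135 CPM in the RD2-mutant rescue, against 213, 213 and 212 CPM in the wild-type rescue, a 1.62-fold fall (log2 -0.70, SE 0.032; edgeR, adjusted p = 6.99e-14).

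The enzymes of the multisynthetase complex were not moved as a block. Of its 8 enzymes 6 fell, 1 rose and 1 did not pass the test, beside 34.8% lower and 35.4% higher among all tested genes. EPRS, which carries both the glutamyl and the prolyl activity in 1 chain, had 274, 303 and 279 CPM in the RD2-mutant rescue, against 437, 461 and 443 CPM in the wild-type rescue. It fell 1.56-fold (log2 -0.65, SE 0.037; edgeR, adjusted p = 1.99e-12). LARS, the leucyl enzyme that also acts as a leucine sensor for mTORC1, had 215, 220 and 207 CPM in the RD2-mutant rescue, against 311, 328 and 318 CPM in the wild-type rescue, a 1.49-fold fall. RARS, the arginyl enzyme, had 62.7, 69.8 and 64.2 CPM in the RD2-mutant rescue, against 97.7, 99.7 and 92.3 CPM in the wild-type rescue, a 1.47-fold fall. For all 3 genes every RD2-mutant library lay below every wild-type library, and the second RD2-mutant library was the highest of its group. Groups without overlap were common, at 72.4% of all tested genes in either direction. IARS, the isoleucyl enzyme, had 397, 422 and 404 CPM in the RD2-mutant rescue, against 499, 512 and 518 CPM in the wild-type rescue, a 1.25-fold fall. IARS (-0.32) and the glutaminyl and lysyl genes QARS (-0.28) and KARS (-0.25) fell by less, all on the log2 scale.

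The remaining complex enzymes were DARS and MARS. DARS, the aspartyl enzyme, had 303, 330 and 308 CPM in the RD2-mutant rescue, against 275, 277 and 273 CPM in the wild-type rescue, and rose 1.14-fold (log2 0.19, SE 0.034; edgeR, adjusted p = 4.40e-05). MARS, the methionyl enzyme, had 248, 249 and 256 CPM in the RD2-mutant rescue, against 245, 257 and 254 CPM in the wild-type rescue. These values overlapped and the 95% interval of the log2 fold change was -0.07 to 0.06 (edgeR, adjusted p = 0.884). Exons of MARS overlap those of ARHGAP9 and DDIT3 on the other strand in GENCODE, and without a stated strand setting their reads cannot be told apart. DDIT3 had 604, 612 and 574 counts in the RD2-mutant rescue, against 265, 257 and 257 in the wild-type rescue, where MARS had 6634 to 6920 counts over both rescues. The counts of ARHGAP9 are not given here, and whether the overlap affects the value of MARS was not tested. Of the 3 scaffold genes of the complex, AIMP2 fell (-0.40), and AIMP1 (0.06) and EEF1E1 (-0.11) did not pass the test.

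Of the 12 cytosolic and dual-localised enzymes outside the complex, 7 fell, 3 rose and 2 did not pass. Among all tested genes 34.8% were lower and 35.4% higher. TARS, the threonyl enzyme, rose most, with 104, 110 and 102 CPM in the RD2-mutant rescue, against 76.2, 76.1 and 75.8 CPM in the wild-type rescue. This was a 1.38-fold rise with no overlap (log2 0.47, SE 0.038; edgeR, adjusted p = 6.67e-10). SARS, the seryl enzyme, rose 1.13-fold, with 207, 215 and 212 CPM in the RD2-mutant rescue and 186, 185 and 190 CPM in the wild-type rescue. YARS, the tyrosyl enzyme, rose 1.06-fold, with 303, 307 and 309 CPM in the RD2-mutant rescue and 283, 290 and 292 CPM in the wild-type rescue (edgeR, adjusted p = 0.0133). The call of YARS was lost without the first wild-type library (adjusted p = 0.0528) or without the third RD2-mutant library (adjusted p = 0.0584).

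AARS, the alanyl enzyme, had 302, 311 and 303 CPM in the RD2-mutant rescue, against 383, 384 and 380 CPM in the wild-type rescue. AARS (-0.32) and the asparaginyl and histidyl genes NARS (-0.29) and HARS (-0.24) fell, as did GARS, the glycyl gene that serves both compartments (-0.14). CARS, the cysteinyl enzyme, had 112, 109 and 107 CPM in the RD2-mutant rescue, against 109, 109 and 110 CPM in the wild-type rescue, and did not pass the test (95% interval of the log2 fold change -0.07 to 0.08). WARS, the tryptophanyl enzyme and an interferon gamma inducible gene, had 131, 136 and 139 CPM in the RD2-mutant rescue, against 134, 142 and 140 CPM in the wild-type rescue, and did not pass either (-0.11 to 0.04). For CARS and WARS the groups overlapped, and the intervals leave room for changes of a few percent. By catalytic class, 5 of 9 class I genes of this compartment fell and 1 rose, and 7 of 10 class II genes fell and 3 rose, with EPRS, which holds both, left out. Both counts stand beside 34.8% lower and 35.4% higher among all tested genes.

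Among the mitochondrial enzymes EARS2, CARS2 and MARS2 fell furthest. EARS2, the mitochondrial glutamyl enzyme, had 46.3, 48.7 and 48.3 CPM in the RD2-mutant rescue, against 74.2, 72.7 and 75.6 CPM in the wild-type rescue, a 1.55-fold fall (log2 -0.63, SE 0.041; edgeR, adjusted p = 1.65e-11). CARS2, the cysteinyl enzyme, had 47.1, 46.2 and 49.5 CPM in the RD2-mutant rescue, against 75.0, 75.7 and 70.9 CPM in the wild-type rescue, also a 1.55-fold fall. MARS2, the methionyl enzyme, had 35.8, 35.8 and 35.2 CPM in the RD2-mutant rescue, against 52.1, 51.9 and 48.9 CPM in the wild-type rescue, a 1.43-fold fall. In all 3 genes the groups did not overlap, as in 72.4% of all tested genes. Exons of EARS2 overlap those of UBFD1, and exons of CARS2 those of ING1, on the other strand. PARS2, the prolyl enzyme and the least abundant member, had 164, 168 and 160 counts in the RD2-mutant rescue, against 236, 236 and 214 counts in the wild-type rescue. It fell 1.39-fold (log2 -0.47, SE 0.093; edgeR, adjusted p = 1.35e-04).

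IARS2, the isoleucyl enzyme and the most abundant mitochondrial member, had 126, 133 and 122 CPM in the RD2-mutant rescue, against 154, 164 and 158 CPM in the wild-type rescue, a 1.25-fold fall. TARS2, the threonyl enzyme, had 63.9, 64.9 and 61.7 CPM in the RD2-mutant rescue, against 77.3, 75.5 and 76.7 CPM in the wild-type rescue, a fall of 0.27 on the log2 scale. Both were lower in every RD2-mutant library than in any wild-type library, where 72.4% of all tested genes had no overlap in either direction. LARS2, the leucyl enzyme, had 62.5, 65.5 and 65.5 CPM in the RD2-mutant rescue, against 69.7, 74.8 and 71.9 CPM in the wild-type rescue. HARS2 (-0.24), YARS2 (-0.22), SARS2 (-0.20) and LARS2 (-0.16) fell by less on the log2 scale, and SARS2 lost its call without the first wild-type library (adjusted p = 0.0548). Exons of HARS2 and HARS overlap on opposite strands, as do those of SARS2 and MRPS12. On the same strand, HARS2 overlaps ZMAT2 and SARS2 overlaps AC011455.2, so single values of these genes are less certain.

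NARS2, the asparaginyl enzyme, was the only mitochondrial member called higher, with 55.4, 58.7 and 57.8 CPM in the RD2-mutant rescue, against 52.4, 54.3 and 49.5 CPM in the wild-type rescue (log2 fold change 0.14, SE 0.045; edgeR, adjusted p = 0.00947). Its call was lost without the third wild-type library (adjusted p = 0.0686) and with DESeq2 (adjusted p = 0.0532). The other 5 mitochondrial genes did not pass the test. AARS2 had 27.1, 27.7 and 26.7 CPM in the RD2-mutant rescue, against 32.0, 26.7 and 30.1 CPM in the wild-type rescue, where the second library was low. VARS2 had 78.3, 71.3 and 77.8 CPM in the RD2-mutant rescue, against 81.2, 80.0 and 80.6 CPM in the wild-type rescue. The groups overlapped for AARS2 and not for VARS2, and both came close to the threshold (edgeR, adjusted p = 0.0697 for AARS2 and 0.0621 for VARS2). AARS2 passed as lower without the second wild-type library (adjusted p = 0.00825) or without the second RD2-mutant library (0.0439), and VARS2 without the first RD2-mutant library (0.0334). Exons of VARS2 overlap those of GTF2H4 on the same strand.

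RARS2 had 47.0, 51.6 and 47.8 CPM in the RD2-mutant rescue, against 49.2, 52.8 and 49.7 CPM in the wild-type rescue. FARS2 had 16.5, 17.8 and 18.2 CPM in the RD2-mutant rescue, against 17.8, 17.9 and 18.8 CPM in the wild-type rescue. WARS2 had 533, 556 and 544 counts in the RD2-mutant rescue, against 549, 576 and 566 counts in the wild-type rescue. For these arginyl, phenylalanyl and tryptophanyl enzymes the groups overlapped in CPM, and the 95% intervals of the log2 fold changes reached from -0.15 to 0.05, from -0.18 to 0.08 and from -0.17 to 0.08, in that order.

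Cytosolic and mitochondrial genes were also set side by side by amino acid. Of 17 such pairs, in which EPRS and FARS2 each occur in more than 1, both genes fell in 5, both rose in 0, and the calls were not the same in 11. Singly, 23 of the 36 members fell and 5 rose, beside 34.8% lower and 35.4% higher among all tested genes. Nothing beyond these single-gene calls is read from the pair counts. The calls were opposite for NARS with NARS2, SARS with SARS2, TARS with TARS2 and YARS with YARS2, and in the rest of the 11 one gene was lower and the other did not pass, which is no test of a difference between them. The ratio of the cytosolic to the mitochondrial transcript did not overlap between the rescues in 13 of the 17 pairs, a share near the 72.4% of single tested genes without overlap, and nothing particular to the pairs is read from it. The ratios were not tested in a model, and with 3 libraries in each group an exact permutation test cannot give a p under 0.1, so they are given as values. The CARS to CARS2 ratio was 2.38, 2.37 and 2.17 in the RD2-mutant rescue, against 1.45, 1.44 and 1.56 in the wild-type rescue, where the fall was in CARS2. The TARS to TARS2 ratio was 1.62, 1.69 and 1.66 in the RD2-mutant rescue, against 0.985, 1.01 and 0.989 in the wild-type rescue, since TARS rose and TARS2 fell.

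Other pairs shifted the opposite way. The RARS to RARS2 ratio was 1.34, 1.35 and 1.34 in the RD2-mutant rescue, against 1.98, 1.89 and 1.86 in the wild-type rescue. The FARSB to FARS2 ratio was 7.30, 7.11 and 6.48 in the RD2-mutant rescue, against 12.8, 12.9 and 12.6 in the wild-type rescue. In both, the cytosolic gene fell and the mitochondrial gene did not pass the test. HARS with HARS2, IARS with IARS2, EPRS with EARS2 and WARS with WARS2 had overlapping ratios. Their log2 fold changes were -0.24 for both histidyl genes, -0.32 for both isoleucyl genes, -0.65 and -0.63 for EPRS and EARS2, and -0.03 and -0.04 for WARS and WARS2.

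**Figure D3:**
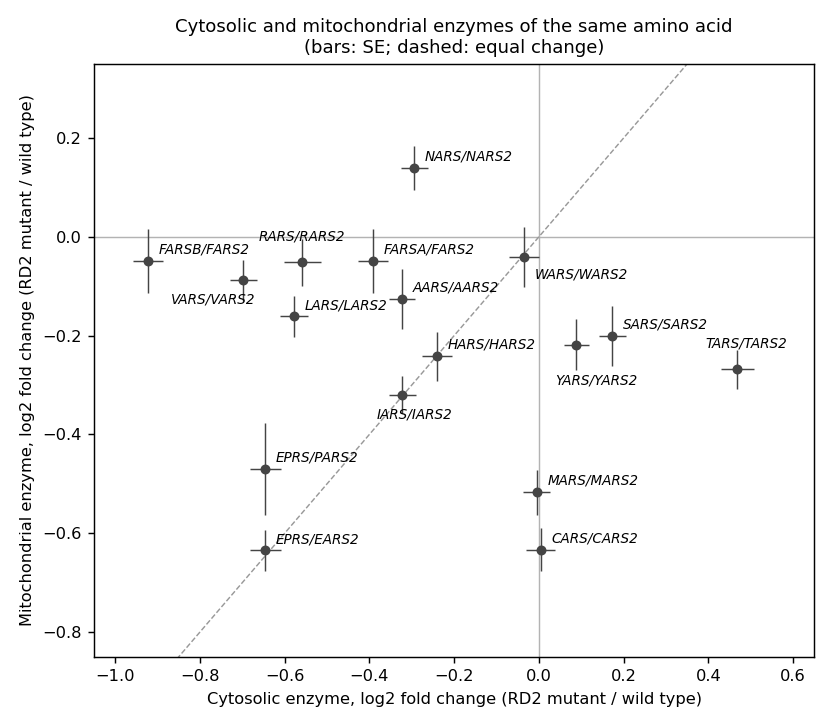
Each point is 1 pair of genes for the same amino acid, with the log2 fold change (RD2-mutant over wild-type rescue) of the cytosolic gene on the horizontal axis and of the mitochondrial gene on the vertical axis, and bars of 1 SE. Only 4 pairs (EPRS with EARS2, IARS with IARS2, HARS with HARS2, WARS with WARS2) lie close to the dashed line of equal change, and TARS with TARS2 lies farthest to the right of it.

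RefSeq promoter sequences of 300 bases, 250 before and 50 after the start, were matched for 30 of the 36 members, and AARS2, DARS, LARS, VARS, VARS2 and YARS were not matched. For each member only the first listed promoter was searched, whereas the shares over all promoters count every listed promoter. TGATGNAAN occurred on either strand in 6 of 16 cytosolic or dual-localised promoters (AARS, CARS, IARS, MARS, NARS and TARS) and in 1 of 14 mitochondrial promoters (YARS2), beside 3.61% of 35116 promoters of that length. The 6 genes had a median log2 fold change of -0.15 and ranged from -0.32 (AARS) to 0.47 (TARS). Of them 3 fell, 1 rose and 2 did not pass, beside 34.8% lower and 35.4% higher among all tested genes. The 10 cytosolic or dual-localised genes without it in the window had a median of -0.26. The ranges overlapped, with SARS (0.17) at the upper end of the genes without the motif.

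CACGTG occurred in 1 of 16 cytosolic or dual-localised promoters (IARS) and in 3 of 14 mitochondrial promoters, beside 7.26% of all promoters. IARS had a log2 fold change of -0.32, beside a median of -0.26 for the cytosolic and dual-localised genes. The 3 mitochondrial genes that carry it, EARS2, CARS2 and MARS2, shown above, were those with the largest falls in that compartment (-0.63, -0.63 and -0.52). The 11 mitochondrial genes without it in the window ranged from -0.47 (PARS2) to 0.14 (NARS2), with a median of -0.20. TTCNNNGAA, a short core shared by BCL6 and STAT motifs, occurred in 4 of the 30 promoters (CARS, TARS, PARS2 and WARS2), beside 7.66% of all promoters, and of these TARS rose, PARS2 fell, and CARS and WARS2 did not pass the test. For comparison, 34.8% of all tested genes were lower and 35.4% higher. A match describes letters in a window and not a bound site.

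**Figure D4:**
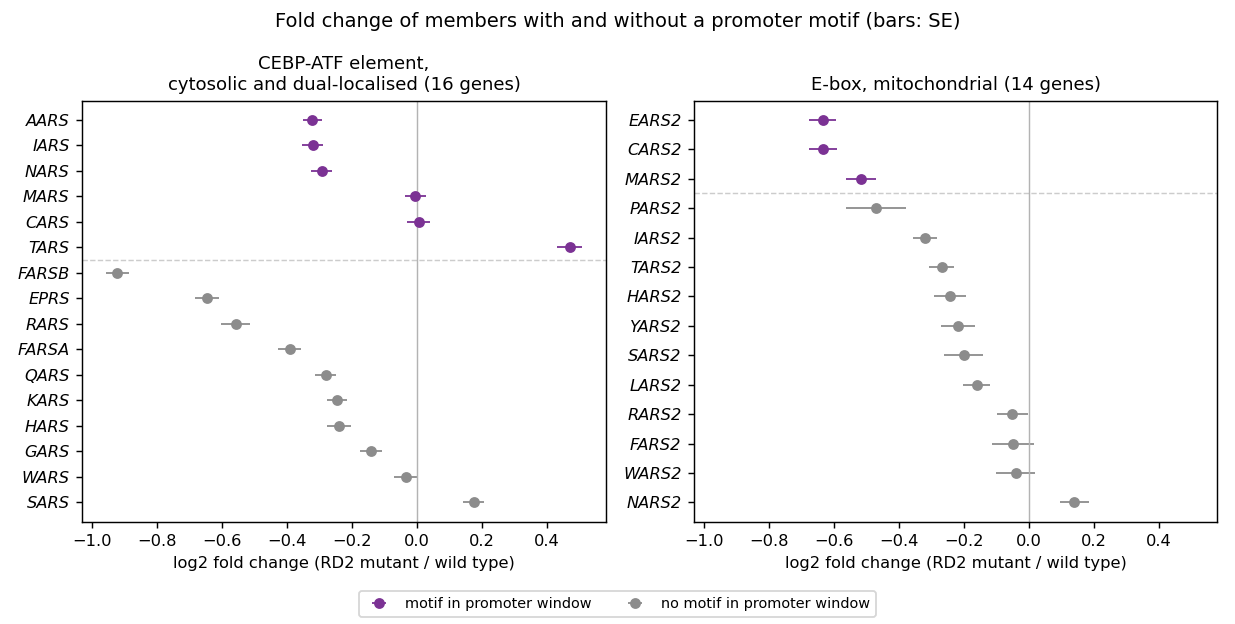
log2 fold change (horizontal axis, bars of 1 SE) of the 16 cytosolic or dual-localised members by a CEBP-ATF element and of the 14 mitochondrial members by an E-box in the 300-base promoter window. Genes with the element stand above the dashed line, and EARS2, CARS2 and MARS2 have the 3 lowest values of the mitochondrial panel.

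MYC, whose product binds E-boxes and raises growth genes, had 184, 183 and 191 CPM in the RD2-mutant rescue, against 269, 262 and 264 CPM in the wild-type rescue, and fell 1.42-fold (edgeR, adjusted p = 1.00e-11). ATF4 moved the other way, with 387, 372 and 380 CPM in the RD2-mutant rescue, against 268, 262 and 275 CPM in the wild-type rescue, a 1.41-fold rise (edgeR, adjusted p = 1.03e-11). The stress factor gene DDIT3, an ATF4 target, rose 2.31-fold. Neither gene's part in the synthetase values was tested.

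On the list of ATF4 and amino acid response genes 29 were tested, of which 19 were higher, 9 were lower and 1 was not called (median log2 fold change 0.32), against 4 rises and 13 falls among the cytosolic and dual-localised synthetases. Among all tested genes 35.4% were higher and 34.8% lower. DDIT4, an inhibitor of mTORC1 signalling, had 134 ± 6.92 CPM in the RD2-mutant rescue and 48.2 ± 2.83 CPM in the wild-type rescue (SD, n = 3), and VLDLR, a lipoprotein receptor gene, rose by 1.97 on the log2 scale. Genes for amino acid supply were among the falls. SLC7A5, the transporter of large neutral amino acids, had 230 ± 6.31 CPM in the RD2-mutant rescue and 376 ± 7.41 CPM in the wild-type rescue (SD, n = 3), and ALDH18A1, of proline synthesis, fell by 0.76 on the log2 scale. ASNS, the asparagine synthetase gene and a classical ATF4 target chosen after its value was seen, fell as well (-0.55).

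All 10 genes of cytosolic translation elongation fell (median -0.57), led by EEF1G (-0.93), a subunit of the exchange factor with which VARS associates, and EEF2 (-0.62), the translocase. The list also holds EEF2K, whose product restrains EEF2. Among 14 mitochondrial translation factors 8 fell, 4 rose and 2 did not pass (median -0.12). The counts of both lists stand beside 34.8% lower and 35.4% higher among all tested genes. TUFM, the elongation factor that carries charged transfer RNA to the mitochondrial ribosome, fell (-0.50), and OXA1L, which inserts its products into the inner membrane, fell too (-0.46), while C12orf65 (0.89), a ribosome rescue factor, and MTIF3 (0.53), an initiation factor, rose.

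The lists for mitochondrial tRNA maturation and for RNA polymerase III, which transcribes transfer RNA genes, are given by their counts, beside 34.8% lower and 35.4% higher among all tested genes. Of 18 genes for mitochondrial tRNA maturation 11 fell, 2 rose and 5 did not pass (median -0.26), with RG9MTD1 (-1.02), a subunit of mitochondrial RNase P, and the methyltransferase gene TRMT5 (-0.79) leading the falls, and the modification enzyme genes MTO1 (0.31) and GTPBP3 (0.13) rising. Of 22 genes for RNA polymerase III transcription 13 fell, 4 rose and 5 did not pass (median -0.18). POLR3G, a polymerase subunit, fell most clearly, with 13.2 ± 0.414 CPM in the RD2-mutant rescue and 34.6 ± 0.599 CPM in the wild-type rescue (SD, n = 3), the general factor gene GTF3C6 fell (-0.36), and POLR3C (0.34) and GTF3C5 (0.23) rose.

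Among 9 tested genes for other steps of tRNA charging 4 fell, 3 rose and 2 did not pass. With 34.8% lower and 35.4% higher among all tested genes, no lean is read from these counts. QRSL1, a subunit of the amidotransferase that makes mitochondrial glutaminyl tRNA, rose 1.89-fold (0.92), although the other subunit genes PET112 (-0.24) and GATC (-0.31), chosen after their values were seen, fell. The glutamyl product of EARS2 is the substrate of this amidotransferase. TARSL2, a second threonyl tRNA synthetase gene close in sequence to TARS, had 73, 74 and 57 counts in the RD2-mutant rescue, against 24, 16 and 24 in the wild-type rescue. MTFMT, which formylates the mitochondrial initiator tRNA after MARS2 has charged it, fell (-0.61), and AARSD1, an alanyl tRNA editing gene, fell (-0.49).

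Interferon gamma response genes were higher in 10 cases, lower in 3 and not called in 1, of 14 with a test (median 0.27). The shares over all tested genes were 35.4% higher and 34.8% lower. The regulators IRF1, with 52.9 ± 1.97 CPM in the RD2-mutant rescue and 12.6 ± 1.41 CPM in the wild-type rescue (SD, n = 3), and NLRC5 (0.99) rose, whereas TAP1 (-0.17) and TAP2 (-0.19) fell. WARS, which shares this regulation, stood at 135 ± 4.09 CPM in the RD2-mutant rescue and 139 ± 4.41 CPM in the wild-type rescue (SD, n = 3) and did not pass the test.

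**Figure D5:**
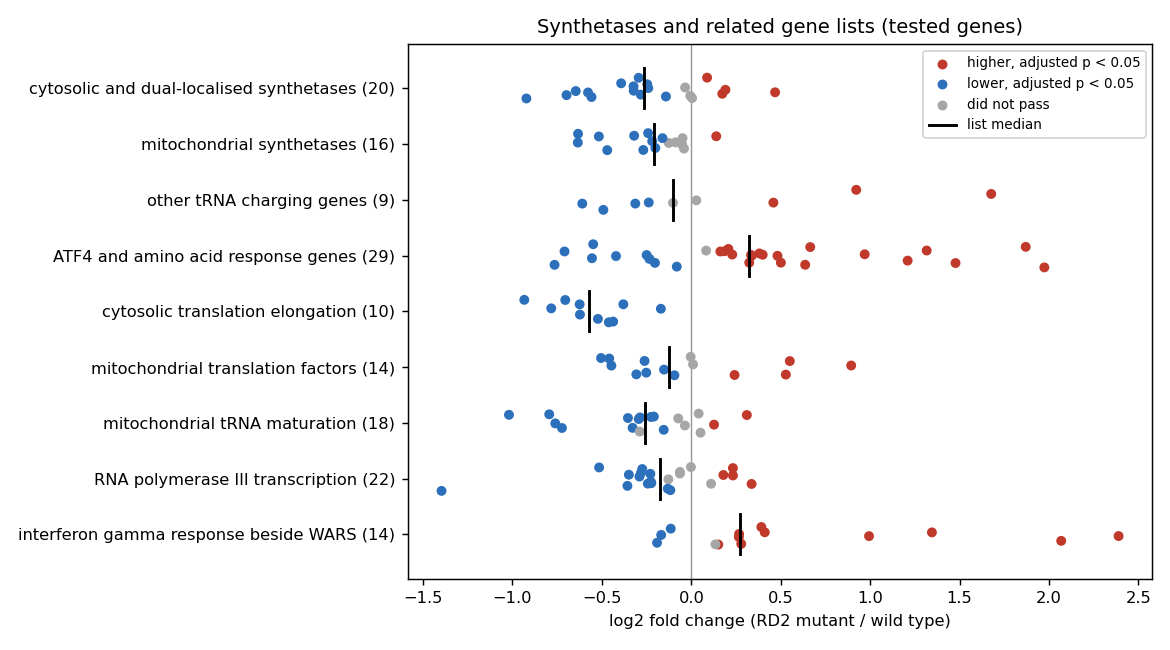
log2 fold change (RD2-mutant over wild-type rescue, horizontal axis) of every tested gene on each list (rows, number tested in parentheses), coloured by call, with the list median as a black bar. Both synthetase rows lie mostly left of 0, the ATF4 row has its median at 0.32, and all 10 elongation genes lie left of 0.

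Between libraries of 1 rescue the coefficients of variation of CPM lay between 0.255% and 5.72% for cytosolic and dual-localised genes and between 0.746% and 9.08% for mitochondrial genes. For CARS, MARS, WARS, AARS2, FARS2, RARS2 and WARS2 the difference between the rescues was within this spread and the groups overlapped. Within the RD2-mutant rescue the second library held the highest CPM for 24 of the 36 members, and within the wild-type rescue the second library did so for 18. Without the one or without the other of these libraries, 13 cytosolic and dual-localised genes fell and 4 rose, as with all 6. Of the mitochondrial genes 11 then fell and 1 rose, against 10 and 1 with all 6, because AARS2 passed the test.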

How the data were processed

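Trizol-extracted total RNA was made into Illumina TruSeq RNA libraries, per the labels' protocols. The submitters' processing notes name CASAVA 1.8.2, STAR, edgeR and build hg19, without their roles. Which counter, annotation and strand setting were used is not given in the sources used here. What the authors deposited is a table of raw counts by gene symbol, with 1 column for each library. Without a strand setting, reads of overlapping or antisense genes cannot be separated, and members with pseudogenes may share reads. Members beyond those named above also overlap other genes, among them KARS (TERF2IP), YARS (S100PBP), WARS (WDR25) and AARS2 (TMEM151B), all on the other strand.

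Counts were analysed in R 4.3.3 with edgeR 4.0.16. filterByExpr kept 12406 of 23250 genes. TMM scaling, robust dispersions and glmQLFTest compared 3 RD2-mutant with 3 wild-type rescue libraries in 1 model, with Benjamini-Hochberg adjustment over all tested genes and a threshold of 0.05. A gene called higher or lower is said to have risen or fallen. SE is the log2 fold change over the square root of its F. CPM are TMM-scaled. Replicate libraries differed by more than counting noise (chi-square per degree of freedom 1.60 to 5.47), so all 6 were kept. The value of 3 counts, taken as the floor, was 0.109 to 0.115 CPM and covers counting error only. The test was tried on simulated data with known changes.

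Members and lists were chosen with earlier results of these data known, so no list has a test. The members given with every library value were the 6 cytosolic or dual-localised and 6 mitochondrial genes with the largest absolute change, those that did not pass, their partners, and the other genes that rose. In each other list the rule named up to 2 called genes per direction, by smallest p, and it added BCL6, MYC, ATF4 and DDIT3. Coding lengths, GC content and exon overlaps came from GENCODE v29 on GRCh38, used by symbol only, since the counts were made on another build. Promoters came from RefSeq on GRCh38.p14. Alternatives were other scalings, DESeq2 1.42.0, limma-voom (limma 3.58.1), other filters, the replicate number as a block, glmTreat, leaving out each library, and, chosen after seeing the data, a correction for GC content and length (mgcv 1.9.3).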

Additional observations from a re-analysis of the deposited data

How the results depend on the processing

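Across 16 alternatives no member past the threshold changed direction, and 19 of 36 members kept their call, or the lack of one, in all 16. Among these 19, CARS, MARS, WARS, FARS2, RARS2 and WARS2 were members that never passed the test. The 13 falls and 4 rises of cytosolic and dual-localised genes were also the counts under every other scaling and filter, DESeq2, limma-voom, the replicate block and the GC and length correction. Against a minimum change of 1.2-fold (glmTreat) 4585 genes were called in all, with 9 cytosolic or dual-localised (8 lower) and 4 mitochondrial genes (all lower), as that test asks for larger changes. With library size alone the medians were -0.24 (cytosolic and dual-localised) and -0.18 (mitochondrial), and where every library had to reach 1 CPM the cytosolic and dual-localised median was -0.25.

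Without 1 library at a time, 8099 to 8916 genes changed in all, 16 to 17 cytosolic or dual-localised and 10 to 12 mitochondrial genes, with medians between -0.27 and -0.25 and between -0.23 and -0.19. With the replicate number as a block 9285 genes changed, 17 and 13 of them in the compartments, where AARS2 (adjusted p = 0.0238) and VARS2 (0.0174) passed. Same-numbered libraries correlated in their deviations at 0.20, 0.24 and -0.07, and libraries with different numbers at -0.25 to 0.11. Whether the numbers pair the samples cannot be told from these values, and the labels do not state a pairing. With the correction for GC content and length, 9063 genes changed, 17 and 12 of them in the compartments. PARS2, with 160 to 236 counts, had the largest SE of any member. A small difference of FARS2 or WARS2 was not detectable at this depth.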
